A study of Mus musculus with 8 samples.

Results

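The genes described here are 40 imprinted genes of the mouse, a class in which the copy inherited from the mother and the copy inherited from the father are not used equally. They were taken by name, as every non-control probe of the array whose gene name in the files is one of the 40. The list of names was drawn up with earlier results of these data known, so the shares below are descriptions and not a test of the class. The array carried 80 probes for 39 of the 40. No probe carried the name of Rian, the host RNA of C/D box small nucleolar RNAs in the Dlk1-Dio3 domain. All probes of 3 further genes, Peg10, Phlda2 and Calcr, were well above background on 0 of 8 arrays. The remaining 36 genes were measured on 63 probes and tested, out of 19751 genes tested in all.

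Imprinted genes carry a mark of their parental origin, DNA methylation set in the egg or the sperm, and most lie in clusters (domains) in which 1 imprinting control region governs several genes, often through a long non-coding RNA. Several paternally expressed genes are known to favour fetal growth and several maternally expressed ones to restrain it. In the developing brain, members act on cell cycle exit, neuronal migration, metabolism and the turnover of synaptic proteins, and some are imprinted in neurons only. An array measures the summed RNA of both alleles, so the values below are levels of a gene and not of its parental copies.

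Cortex was taken from 8 male C57BL/6NCr mice at postnatal day 1.5, 4 from pregnancies with ischemia and 4 controls. For the ischemia group, clips closed the mother's uterine arteries for 14 min under anesthesia at E16.5, which interrupted the blood supply of the embryos. Surgery on control mothers and the litter of each pup are not given in the labels, so p-values measure the spread between these pups. Each pup's RNA was hybridised to 1 one-colour Agilent 8x60K array, and the comparison asks how levels after the prenatal insult compared with those of controls.

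Levels are given as log2 of the deposited processed signal relative to the array's 75th percentile, so that 0 is the 75th percentile and 1 unit is a doubling. That percentile lay between 305.6 and 393.3 signal units, and 47.6% to 51.7% of the spots on an array were well above background. All 8 arrays shared 1 slide, with the ischemia samples in 1 row and the controls in the other, so slide row and group cannot be told apart. In whole cortex, fewer cells that express a gene and less RNA per cell cannot be told apart either. The 15 cortical neuron markers were all measured, with a summed level of 632 to 731 in ischemia and 678 to 714 in controls, in multiples of the 75th percentile. Of 14 markers of thalamus and hypothalamus, 6 (Gbx2, Otp, Sim1, Nkx2-1, Avp and Oxt) were well above background on 0 arrays. The other 8 were tested, with Lhx2 the brightest of them. The summed level of this list was 29 to 34 in ischemia and 28 to 33 in controls. Of 10 striatum markers 6 were tested, and of 7 hippocampus markers 6. Whether the samples held tissue of these regions was not tested. Markers of tissue next to the cortex differed between arrays. The 14 listed markers of meninges and fibroblasts, 11 of them tested, summed to 15.5 or more in ischemia replicates 1 and 4. Their sum was 4.82 and 5.74 in ischemia replicates 2 and 3 and 4.17 to 4.96 in controls, with Foxd1 well above background on 0 arrays. Bright genes weigh most in such a sum. In ischemia replicate 4 Ptgds read 3.48 on the log2 scale, and every other tested marker read 0.32 or less. The mean log2 deviation of the 11 from their control means was 1.45, -0.084, 0.46 and 0.68 in ischemia replicates 1 to 4. In controls it ran from -0.18 to 0.17. The 12 choroid plexus markers, 5 of them tested, summed to 114 in ischemia replicate 4, to 0.673 to 1.06 in the other ischemia arrays and to 0.859 to 1.06 in controls, with Prlr and Cldn2 well above background on 0 arrays.

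Probe sequences are shown for the non-coding RNAs H19, Meg3 and Mirg, because each 60-base probe reads a separate stretch of the RNA. The 6 measured probes of H19 on chromosome 7 (minus strand, coordinates in mm9) are given in genomic order, and the values they gave on each array are compared below. Letters are in lower case throughout, since no base of a probe is singled out.
H19 probe 1, chr7:149761492-149761551: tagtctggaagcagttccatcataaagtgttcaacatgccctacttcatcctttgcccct
H19 probe 2, chr7:149761693-149761752: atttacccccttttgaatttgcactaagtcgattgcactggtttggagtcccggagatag
H19 probe 3, chr7:149761756-149761815: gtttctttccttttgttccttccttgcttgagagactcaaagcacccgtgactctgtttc
H19 probe 4, chr7:149761957-149762016: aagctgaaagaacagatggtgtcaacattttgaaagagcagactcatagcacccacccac
H19 probe 5, chr7:149762113-149762172: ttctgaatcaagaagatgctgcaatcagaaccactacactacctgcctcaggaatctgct
H19 probe 6, chr7:149762173-149762232: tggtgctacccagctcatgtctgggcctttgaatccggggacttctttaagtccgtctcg

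On chromosome 12 (plus strand, mm9) the Dlk1-Dio3 domain is read by the following probes, among others. The third belongs to a non-coding feature that the array knows only by position, and other probes between the Mirg probes were measured too.
Meg3, the probe used in the test, chr12:110809678-110809737: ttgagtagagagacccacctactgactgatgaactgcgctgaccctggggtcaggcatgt
Mirg probe 1, chr12:110979653-110979712: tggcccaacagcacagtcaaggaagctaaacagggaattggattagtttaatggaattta
Probe between the Mirg probes, chr12:110983504-110983563: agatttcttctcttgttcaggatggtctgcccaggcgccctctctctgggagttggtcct
Mirg probe 2, chr12:110987569-110987628: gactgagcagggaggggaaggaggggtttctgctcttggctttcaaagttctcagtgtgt

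Both loci are also hosts of microRNAs, which this array did not measure. They are shown as part of the host loci, and the host values below give no level of a mature arm. The seed (bases 2 to 8) is in capitals, from RefSeq on GRCm38.p6. The H19 gene holds 1 hairpin with 2 mature arms, and Mirg, named as a host of microRNAs, holds 10 hairpins with 19 mature arms. The arms in Mirg have 18 distinct seeds, since miR-453 and the 5p arm of miR-496a share 1.
miR-675-5p, in H19, chr7:142577112-142577133, minus strand: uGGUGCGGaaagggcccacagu
miR-675-3p, in H19, chr7:142577078-142577099, minus strand: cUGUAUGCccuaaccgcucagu
miR-453, in Mirg, chr12:109735669-109735692, plus strand: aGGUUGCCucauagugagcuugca
miR-496a-5p, in Mirg, chr12:109739132-109739152, plus strand: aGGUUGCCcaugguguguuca

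Between ischemia and control cortex, 0 of the 36 imprinted genes passed limma's test after Benjamini-Hochberg adjustment over all genes, where the background share was 0.00506% (1 gene of 19751). The lowest adjusted p among them was 0.270, for Dlk1. At an unadjusted p under 0.05, 4 of the 36 (11.1%) were higher in ischemia, against 3.25% of all genes. These were Dlk1, Cdkn1c, Magel2 and Impact. At the same limit 0 of 36 were lower, against 7.65% of all genes. The groups did not overlap, with ischemia higher, in 5 of 36 (13.9%), the same 4 genes and Cd81, against 2.27% of all genes. They did not overlap with ischemia lower in 0 of 36, against 4.28%. A difference above 0 was found in 25 of 36 (69.4%), against 43% of all genes. The median log2 difference was 0.059 over the 36 and -0.023 over all genes, and the 36 ran from -0.16 for Mest to 0.46 for Meg3.

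**Figure D1:**
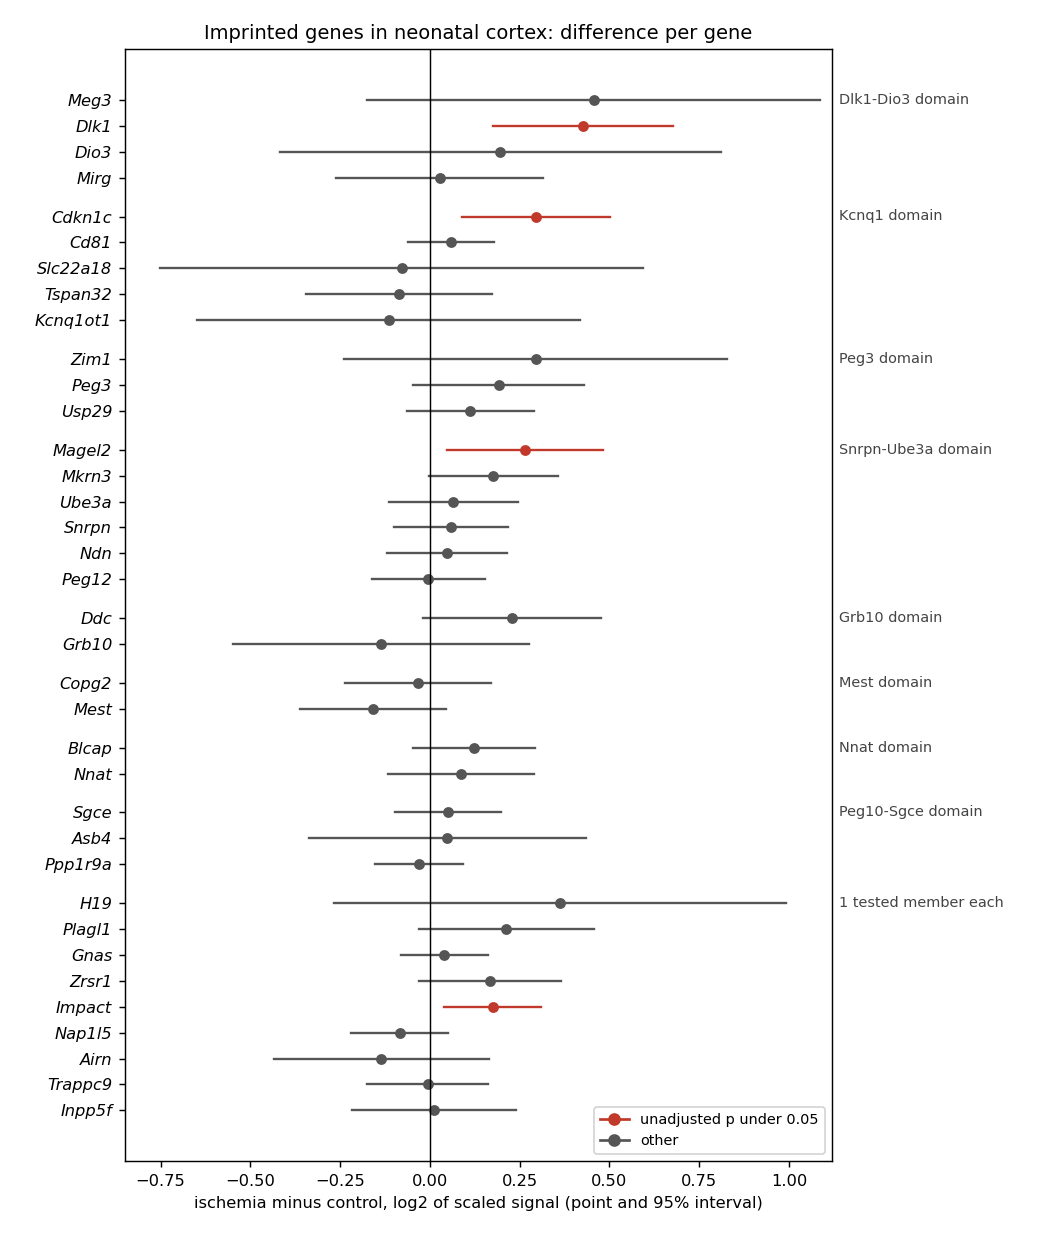
Log2 difference, ischemia minus control, of the 36 tested imprinted genes with its 95% interval from limma (n = 4 arrays each), grouped by domain, with genes at an unadjusted p under 0.05 in red. Points lie right of 0 for 25 genes, and the intervals of Dlk1, Cdkn1c, Magel2 and Impact do not reach 0, although 0 genes passed after adjustment.

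The Dlk1-Dio3 domain on chromosome 12 encodes paternally expressed proteins, among them Dlk1 and the thyroid hormone deiodinase Dio3, and a chain of maternally expressed non-coding RNAs that starts with Meg3. All 4 tested members had a difference above 0, with a median of 0.31. Dlk1, a membrane protein related to the Notch ligands, gave -0.53, -0.96, -1.02 and -0.89 in ischemia replicates 1 to 4 and -1.22, -1.36, -1.19 and -1.34 in control replicates 1 to 4, on the probe at chr12:110698721-110698781 (mm9). Every ischemia array lay above every control, and ischemia replicate 1 stood highest. The difference was 0.43 (SE 0.11), a 1.34-fold ratio, with an unadjusted limma p of 0.00420 and an adjusted p of 0.270. Ischemia replicate 1 was also the array with the highest sum of meningeal markers, whose part in the result was not tested. With normexp background correction Dlk1 differed by 0.25. Without ischemia replicates 1 and 4, a setting chosen after the data were seen, Dlk1 differed by 0.29. A second Dlk1 probe exceeded background clearly on only 1 array and was not used.

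Meg3, a long non-coding RNA, gave 3.22, 3.29, 2.07 and 2.60 in ischemia replicates 1 to 4 and 2.54, 2.62, 2.19 and 2.0 in controls. Ischemia replicates 1 and 2 lay above all controls, replicate 4 beside the higher controls and replicate 3 among the lower ones. Its difference of 0.46 (SE 0.28, limma adjusted p = 0.602) was the largest of the 36 and within the spread of the arrays. It was 0.29 without ischemia replicate 2 and 0.70 without ischemia replicate 3. The other 2 Meg3 probes differed by 0.15 and 0.16. Mirg, further along the same strand, gave 0.83, 0.74, 0.37 and 0.51 in ischemia and 0.79, 0.68, 0.44 and 0.44 in controls on its brighter probe, and the groups overlapped almost fully. That probe differed by 0.027 (SE 0.13) and the other Mirg probe by 0.37 (SE 0.22). Dio3 averaged -3.11 ± 0.58 in ischemia and -3.31 ± 0.24 in controls (SD, n = 4 each), with ischemia replicates 1 and 4 above all controls and replicate 2 below them, and differed by 0.20 (SE 0.27), by 0.061 without ischemia replicate 1, by 0.48 without ischemia replicate 2 and by 0.030 with normexp.

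Between the probes of Dlk1 and Dio3 the array carried other probes that name no member. On the plus strand, that of the members, 23 of 65 such probes were measured, 10 of them with a difference above 0, against 43.3% of all kept probes, and a median of -0.010. On the minus strand 5 of 46 were measured, 0 of them above 0. One probe stood apart and was singled out after its values were seen. It lies between the 2 Mirg probes and read 0.51, 0.39, 0.46 and 0.44 in ischemia replicates 1 to 4 and 1.15, 1.07, 0.91 and 0.85 in controls. All ischemia arrays were below all controls, with a mean difference of -0.54 (SE 0.080), while the limma adjusted p over all kept probes was 0.201. The feature to which the array assigns it runs past both Mirg probes, and 2 other probes of that feature were measured. They were much dimmer, with group means from -3.12 to -2.62, and differed by 0.32 (SE 0.18) and 0.090 (SE 0.19), with overlapping groups. The low value was thus seen on 1 probe, and probes this dim say little of the whole feature. A further 2 probes of another feature in the same stretch differed by 0.20 and -0.010.

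**Figure D2:**
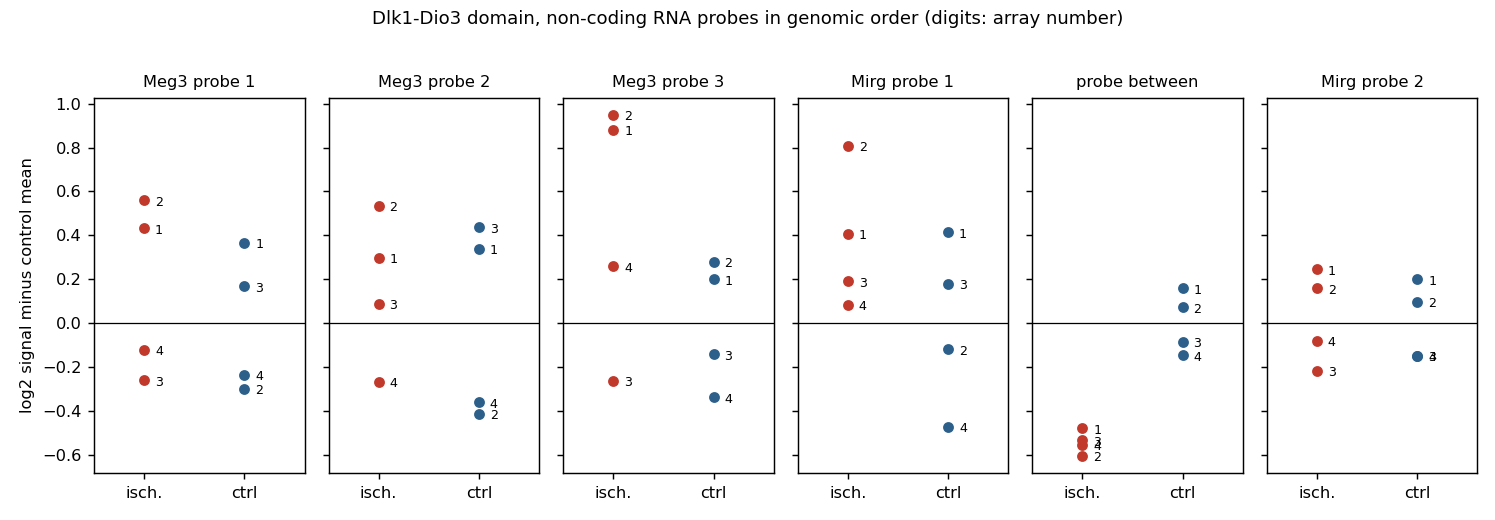
Log2 signal minus the control mean for 6 probes of non-coding RNA in the Dlk1-Dio3 domain, in genomic order, 1 point per array with its replicate number, ischemia in red and control in blue. The probe shown between the Mirg probes was picked after its values were seen, and other measured probes between them are not shown. It is the only panel of the 6 without overlap, with ischemia lower. Ischemia replicates 1 and 2 are the highest ischemia arrays on the Meg3 and Mirg probes.

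H19 is a maternally expressed long non-coding RNA of the embryo that shares its control region with the growth factor gene Igf2. Its ischemia arrays differed widely among themselves. On the probe used in the test it gave 2.37, 1.74, 0.84 and 1.68 in ischemia replicates 1 to 4 and 1.31, 1.47, 1.25 and 1.16 in controls. Ischemia replicates 1, 2 and 4 lay above all controls and replicate 3 below all of them. The SD over arrays was 0.63 in ischemia and 0.13 in controls, a ratio of 4.78. This ratio was the largest of the 36 tested imprinted genes, and 2.21% of all genes had one at least as large. The largest of 36 ratios is extreme by selection, so that share alone does not mark H19 as unusual. The mean difference of 0.36 (SE 0.28, limma adjusted p = 0.688) was within the spread of the arrays.

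The arrays stood alike on every measured H19 probe. On 6 of 6, ischemia replicates 1, 2 and 4 exceeded all controls and ischemia replicate 3 was the lowest of the 8 arrays. Relative to the control mean of each probe, the median over the 6 probes was 1.15, 0.68, -0.50 and 0.54 in ischemia replicates 1 to 4. In controls it lay between -0.015 and 0.013. The 6 probes share the labelled RNA of each pup, so they repeat the measurement and do not add pups. Fitted one by one, their differences ran from 0.36 to 0.67, with SEs of 0.26 to 0.44. With ischemia replicate 3 left out the difference was 0.63, with replicate 1 left out 0.13, and with replicates 1 and 4 both left out -0.0049.

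Igf2, the paternally expressed growth factor next to H19 and no member of the 40, gave -1.50, -1.77, -1.93 and -1.72 in ischemia and -2.06, -1.80, -2.33 and -2.07 in controls. Ischemia replicate 1 was highest and control replicate 3 lowest, with overlap between the groups, and the difference was 0.34 (SE 0.13, limma adjusted p = 0.400), or 0.15 with normexp. Igf2 is made in quantity by meninges and choroid plexus. Of 11 tested meningeal markers 8 had a difference above 0 and 2 of these, Ptgds and Slc6a13, an unadjusted p under 0.05. Lum, Ogn and Crabp2 had differences below 0. Ptgds, a prostaglandin synthase of the meninges, read 3.04, -0.27, -0.0069 and 3.48 in ischemia and -1.02, -0.010, -1.16 and -0.96 in controls. Slc6a13, a transporter of the same tissue, read -0.033, -3.60, -2.70 and -2.30 in ischemia and -4.24, -3.52, -3.73 and -3.36 in controls. Ischemia replicate 1 was high in H19, Igf2 and both markers. The Ptgds value of ischemia replicate 4 came from the array with a choroid plexus sum of 114, and which tissue gave that value was not tested. Ischemia replicate 2 was high in H19 but lay among the controls in Slc6a13 and, for Ptgds, below the highest control. Ischemia replicate 3 was lowest in H19 while above all controls in Slc6a13. The part of these markers in the H19 or Igf2 level was not tested.

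**Figure D3:**
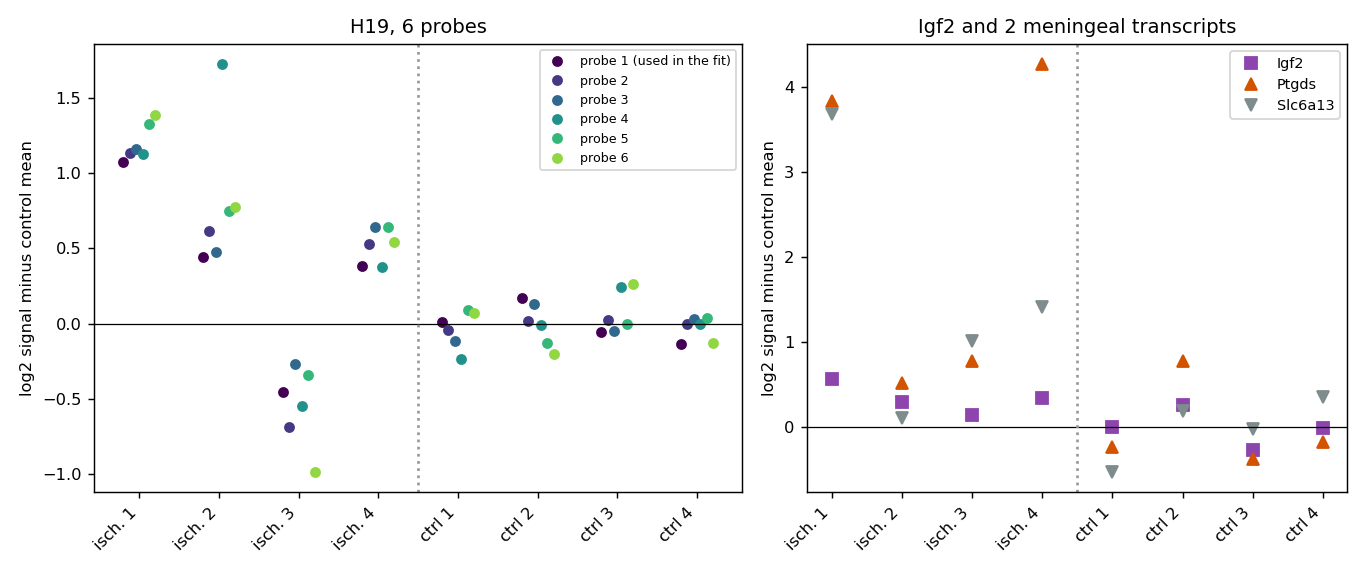
Log2 signal minus the control mean on each array, for the 6 measured H19 probes (left) and for Igf2 with the meningeal transcripts Ptgds and Slc6a13 (right), ischemia arrays left of the dotted line. On the left all 6 H19 probes lie above every control in ischemia replicates 1, 2 and 4 and below every control in replicate 3, and on the right Ptgds is high in ischemia replicates 1 and 4.

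In the Kcnq1 domain on chromosome 7, 2 of 5 tested members had a difference above 0, with a median of -0.079. Cdkn1c, the cyclin-dependent kinase inhibitor p57 that holds neural progenitors out of the cell cycle, gave 3.81, 3.77, 4.05 and 3.96 in ischemia replicates 1 to 4 and 3.56, 3.65, 3.75 and 3.45 in controls, on the probe at chr7:150644753-150644812 (mm9). Every ischemia array exceeded every control, by a mean of 0.30 (SE 0.090, a 1.23-fold ratio, limma adjusted p = 0.325, 0.0104 unadjusted). The 10 progenitor markers lay the other way, with a summed level of 224 to 243 in ischemia and 253 to 267 in controls. Bright genes weigh most in that sum. The mean log2 deviation of the 10 from their control means ran from -0.13 to -0.047 in ischemia and from -0.14 to 0.17 in controls, with overlap. Of the 10, 3 had a difference above 0, 3 were lower at an unadjusted p under 0.05 and 0 passed after limma's adjustment, and their part in the Cdkn1c value was not tested. Kcnq1ot1, the paternal antisense RNA that silences the domain, gave -0.96, -0.34, -0.93 and -1.07 in ischemia and -0.46, -1.15, -0.25 and -0.98 in controls. Its arrays were spread over the same range in both groups, and it differed by -0.12 (SE 0.23).

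Cd81, a tetraspanin of the cell surface imprinted in placenta, averaged 5.54 ± 0.013 in ischemia and 5.49 ± 0.054 in controls (SD, n = 4 each). Its ischemia arrays lay within 5.53 to 5.55, just above the controls, and the difference of 0.058 (SE 0.052) had an unadjusted p of 0.297 in limma. The transporter gene Slc22a18 differed by -0.079 (SE 0.29) and the tetraspanin Tspan32 by -0.086 (SE 0.11), both with overlapping groups. Phlda2, which limits growth of the placenta, had no probe well above background. Kcnq1 itself, a potassium channel gene that is no member but hosts the control region, gave -2.37, -2.49, -2.34 and -2.31 in ischemia and -1.99, -1.83, -1.88 and -1.67 in controls. Its ischemia arrays were all below the controls, with a difference of -0.54 (SE 0.081, limma adjusted p = 0.151) and -0.29 with normexp, so that within 1 domain Cdkn1c lay higher and Kcnq1 lower in ischemia, and neither passed.

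The Snrpn-Ube3a domain, whose human counterpart is lost in Prader-Willi and Angelman syndromes, had 6 tested members, 5 with a difference above 0 and a median of 0.062. Magel2, a MAGE family protein of endosomal sorting, gave -0.60, -0.80, -0.47 and -0.73 in ischemia replicates 1 to 4 and -1.03, -0.81, -1.02 and -0.80 in controls. The groups did not overlap, although the lowest ischemia array and the highest controls nearly touched, and the difference was 0.27 (SE 0.095, limma adjusted p = 0.385, 0.0223 unadjusted) and 0.18 with normexp. Mkrn3, a ring finger protein of the makorin family, gave 0.32, 0.29, 0.56 and 0.30 in ischemia and 0.14, 0.29, 0.14 and 0.20 in controls. One ischemia array, replicate 3, stood above the rest, and Mkrn3 differed by 0.18 (SE 0.078, limma adjusted p = 0.466, 0.0542 unadjusted) and by 0.11 without that array.

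Ndn encodes necdin, a MAGE family protein of postmitotic neurons, and gave 4.13, 3.96, 3.89 and 4.07 in ischemia and 3.87, 4.02, 3.93 and 4.03 in controls. Snrpn, a spliceosome protein of neurons, gave 3.90, 3.73, 3.74 and 3.86 in ischemia and 3.63, 3.75, 3.82 and 3.79 in controls. Both genes varied little, with overlapping groups, and differed by 0.048 (SE 0.073) and 0.059 (SE 0.069). The other Snrpn probes gave 0.027 and 0.18, the second with a limma adjusted p of 0.493 over all kept probes and 0.0492 unadjusted, and with overlapping groups. Ube3a, the ubiquitin ligase expressed from the maternal copy in neurons, gave -0.21, -0.20, -0.048 and -0.16 in ischemia and -0.14, -0.41, -0.18 and -0.15 in controls. Control replicate 2 lay below the other 7 arrays, and the difference was 0.066 (SE 0.079) with all arrays but 0.00083 without that control. Peg12, a Frat-family inhibitor of GSK3, differed by -0.0050 (SE 0.069). Between the probes of Ube3a and Peg12, 35 of 57 other probes on the minus strand, the strand of Snrpn, were measured, with 14 above 0 and a median of -0.032. On the plus strand 24 of 45 were measured, with 8 above 0 and a median of -0.079. Many of these plus-strand probes read 1 stretch beside the Ube3a probe, chr7:66563347-66565105 in mm9, in overlapping features named by position. All measured probes of that stretch had a difference below 0, from -0.36 to -0.0028, so the count and median are not those of separate transcripts. At an unadjusted p under 0.05, 3 minus-strand and 1 plus-strand probe were lower in ischemia and 1 minus-strand probe was higher, where 7.06% of all kept probes were lower and 3.06% higher, and 0 passed after limma's adjustment over all kept probes. The 3 lower minus-strand probes belong to 1 non-coding feature between Ube3a and Snrpn, at chr7:67119536-67119595, chr7:67119738-67119797 and chr7:67119948-67120007 in mm9, and differed by -0.22, -0.33 and -0.30. The plus-strand probe, at chr7:67804562-67804621, differed by -0.89 (SE 0.23) and the higher minus-strand probe, at chr7:68417102-68417161, by 0.38 (SE 0.14). The groups did not overlap on either, and these 5 probes were chosen after their values were seen. The plus-strand probe was dim, with group means of -3.66 in ischemia and -2.77 in controls, and was well above background on 7 of 8 arrays. The probe adjoining the higher one, at chr7:68417162-68417221, carries the gene name Dcc and differed by 0.36 (SE 0.17). Which transcript the higher probe reads was not tested.

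In the Peg3 domain all 3 tested members had a difference above 0, with a median of 0.19. Peg3, a zinc finger protein of paternal expression linked to maternal behaviour and growth in mice, gave -1.12, -0.69, -0.90 and -0.91 in ischemia and -1.27, -1.07, -0.95 and -1.10 in controls. Ischemia replicates 2, 3 and 4 lay above all controls and replicate 1 among them, a difference of 0.19 (SE 0.10, limma adjusted p = 0.551), or 0.12 without ischemia replicate 2. A dimmer Peg3 probe, well above background on 4 of 4 ischemia and 2 of 4 control arrays, differed by 0.46 (SE 0.15, adjusted p = 0.389 over all kept probes). Usp29, a ubiquitin-specific peptidase, differed by 0.11 (SE 0.077), and Zim1, a maternally expressed zinc finger gene, by 0.29 (SE 0.23), which was 0.097 with normexp and 0.14 without control replicate 3.

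Of the genes that stand in domains with 1 or 2 tested members, Impact had the smallest p. It encodes an inhibitor of the eIF2 kinase GCN2, which slows protein synthesis when amino acids are short, and is abundant in neurons. Impact gave 1.58, 1.67, 1.69 and 1.73 in ischemia replicates 1 to 4 and 1.42, 1.48, 1.52 and 1.56 in controls. The groups were separate and each was tight, with a difference of 0.17 (SE 0.059, a 1.13-fold ratio, limma adjusted p = 0.365, 0.0177 unadjusted). Its second probe gave 0.18.

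Plagl1, a zinc finger transcription factor that regulates other imprinted genes in mice, gave 3.04, 3.29, 3.30 and 3.20 in ischemia and 3.28, 2.86, 2.94 and 2.91 in controls. Control replicate 1 lay among the higher ischemia arrays while the other controls were below all ischemia arrays. The difference was 0.21 (SE 0.11), and its 4 measured probes ran from 0.16 to 0.34. Zrsr1, a retrogene related to the splicing factor U2af1, gave 1.15, 1.14, 1.35 and 1.24 in ischemia and 0.86, 1.08, 1.08 and 1.19 in controls, with a difference of 0.17 (SE 0.086). Ddc, the decarboxylase that makes dopamine and serotonin and is imprinted in heart, gave -0.88, -0.60, -0.99 and -0.95 in ischemia and -1.18, -0.94, -1.24 and -0.97 in controls, with a difference of 0.23 (SE 0.11). In each of the 3 genes 2 ischemia arrays lay above all controls and the others overlapped with them.

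Grb10, an adaptor that restrains insulin and growth factor receptors and is paternally expressed in neurons, gave -1.36, -1.13, -1.55 and -1.11 in ischemia and -0.95, -1.12, -1.66 and -0.88 in controls. Control replicate 3 was the lowest of the 8 arrays, and the difference was -0.14 (SE 0.18) with it and -0.31 without it, which brings its unadjusted limma p under 0.05. Mest, a hydrolase family protein, gave 1.48, 1.33, 1.59 and 1.68 in ischemia and 1.82, 1.64, 1.58 and 1.67 in controls. Its 2 lowest arrays were ischemia replicates 1 and 2, and its difference of -0.16 (SE 0.089) was the lowest of the 36, with its 3 measured probes between -0.16 and -0.12. Copg2, a coatomer subunit that overlaps the Mest locus on the opposite strand, differed by -0.033 (SE 0.089).

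Nnat, the proteolipid neuronatin of the endoplasmic reticulum, gave 5.31, 5.09, 5.22 and 5.27 in ischemia and 4.93, 5.16, 5.30 and 5.15 in controls, with overlap, and differed by 0.087 (SE 0.089) while its second probe gave -0.031. Blcap, the gene in whose intron Nnat lies, differed by 0.12 (SE 0.074). Gnas, the stimulatory G protein alpha subunit, whose locus makes maternal, paternal and biallelic transcripts, gave 6.68, 6.60, 6.61 and 6.59 in ischemia and 6.54, 6.61, 6.62 and 6.55 in controls. That probe, at chr2:174171933-174171992 in mm9, differed by 0.040 (SE 0.053) and a probe upstream of it, at chr2:174163501-174163560, by -0.15 (SE 0.077), opposite in sign and both within the spread. Another 2 Gnas probes were well above background on 0 arrays. Inpp5f, an inositol phosphatase with a paternal isoform in brain, gave 0.85, 0.89, 1.28 and 0.99 in ischemia and 1.03, 1.00, 0.87 and 1.06 in controls. Ischemia replicate 3 was the highest array, and the difference was 0.011 (SE 0.10).

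In the Peg10-Sgce domain Sgce, the epsilon-sarcoglycan of myoclonus dystonia in humans, differed by 0.049 (SE 0.065), the actin-binding protein gene Ppp1r9a by -0.030 (SE 0.053) and Asb4, an ankyrin repeat protein, by 0.049 (SE 0.17). Peg10, a retrotransposon-derived gene, and the calcitonin receptor gene Calcr were not well above background on any array, so no level is given. The retrogene Nap1l5 differed by -0.084 (SE 0.059), Airn, the antisense RNA that silences Igf2r, by -0.14 (SE 0.13), and Trappc9, a subunit of a vesicle tethering complex, by -0.0066 (SE 0.074). The groups overlapped in all 6.

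**Figure D4:**
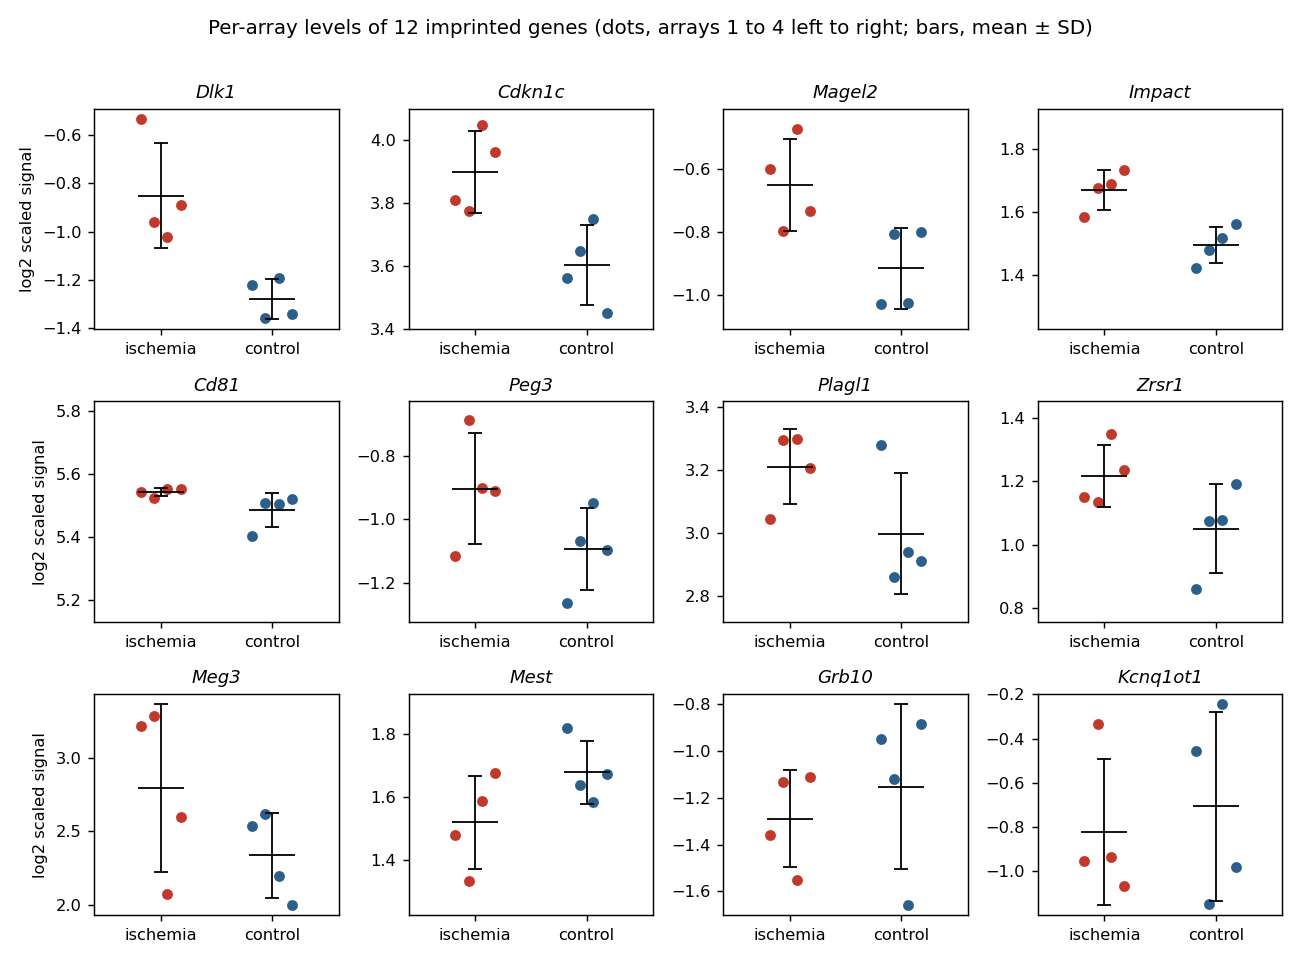
Per-array levels of 12 imprinted genes, log2 of signal relative to the array's 75th percentile, with dots for arrays 1 to 4 from left to right and bars for mean ± SD (n = 4 each). The groups are separate in Dlk1, Cdkn1c, Magel2, Impact and Cd81 and overlap in the other 7, and each panel has its own axis.

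Read by parental origin, 13 of 18 tested genes listed as paternally expressed had a difference above 0, with a median of 0.099, and 6 of 9 listed as maternally expressed, with a median of 0.049. A further 9 with tissue- or isoform-dependent imprinting had 6 above 0 and a median of 0.040. The genes at an unadjusted p under 0.05 were 3 paternal (Dlk1, Magel2 and Impact) and 1 maternal (Cdkn1c), and the difference between origins was not tested. Of 18 genes with more than 1 measured probe, 5 (Airn, Gnas, Inpp5f, Nap1l5 and Nnat) had probes of opposite sign, all of them genes in which the groups overlapped.

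The spread within groups was compared for all 36 as a description. The SD was larger in ischemia in 22 of 36, with a median ratio of 1.11, against 50.1% and 1.00 over all genes. H19 had the largest ratio, followed by Asb4 at 3.66 and Tspan32 at 3.1. Cd81 had the smallest at 0.243. The median pooled SD was 0.13 over the 36 and 0.14 over all genes.

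**Figure D5:**
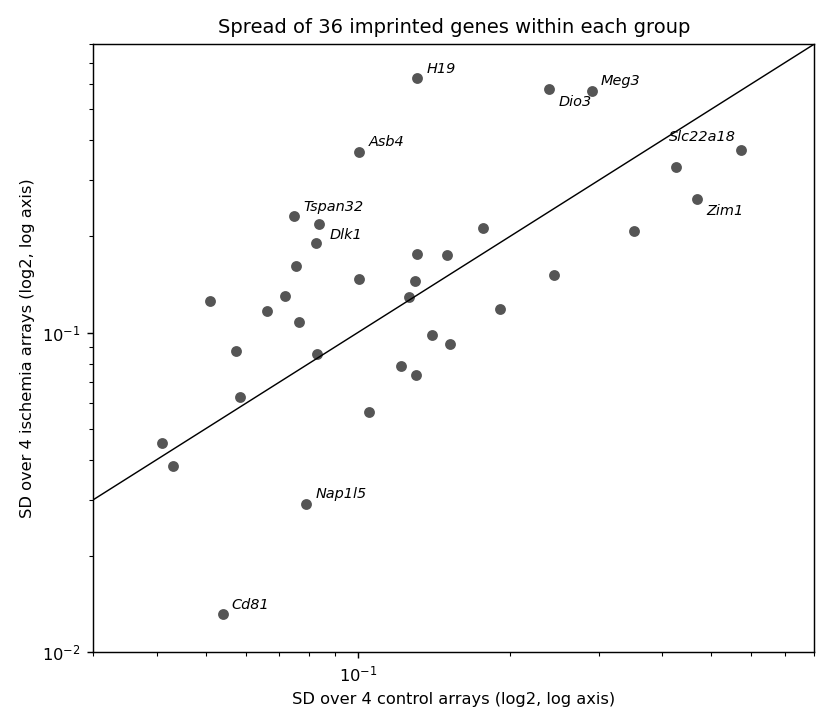
SD over the 4 ischemia arrays (vertical) against SD over the 4 control arrays (horizontal) for the 36 tested imprinted genes, in log2 units on log axes, with a line of equal spread. H19 lies farthest above the line, at 0.63 in ischemia and 0.13 in controls, and Cd81 farthest below it.

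Genes of 1 domain can share control elements, and 7 neighbouring pairs were compared across the 8 arrays, which share scaling and hold both groups. Each group alone has 4 arrays, under the 6 needed for a correlation within it. Meg3 and Mirg gave Pearson r = 0.838 (exact permutation p = 0.0105, two-sided, adjusted p = 0.0432 over 7 pairs, n = 8) and Spearman rho = 0.738 (exact permutation p = 0.0458, adjusted p = 0.0802). Without the 2 arrays farthest from the median of Meg3, r was 0.770. Ndn and Snrpn gave r = 0.824 (exact permutation p = 0.0124, adjusted p = 0.0432) and rho = 0.810 (exact permutation p = 0.0218, adjusted p = 0.0762), and r was 0.538 without the 2 arrays farthest from the median of Ndn, ischemia replicate 1 and control replicate 1. The rank correlation of either pair did not pass after adjustment. With 1 array left out in turn, r ranged from 0.775 to 0.932 for Meg3 and Mirg and from 0.728 to 0.910 for Ndn and Snrpn, and the adjusted exact p missed 0.05 in 7 and 6 of these 8 sets of 7 arrays.

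For H19 and Igf2, which share enhancers, r was 0.752 (exact permutation p = 0.0332, adjusted p = 0.0652) and rho was 0.810 (exact permutation p = 0.0218, adjusted p = 0.0762), with r = 0.844 without ischemia replicates 1 and 3. Nnat and Blcap gave r = 0.724 (exact permutation p = 0.0373, adjusted p = 0.0652), rho = 0.762 (exact permutation p = 0.0368, adjusted p = 0.0802) and r = 0.670 without ischemia replicate 1 and control replicate 1. The other 3 pairs did not pass by either measure. They had r = 0.507 for Peg3 and Usp29 (exact permutation p = 0.191, adjusted p = 0.228), 0.512 for Mest and Copg2 (exact permutation p = 0.196, adjusted p = 0.228) and 0.332 for Ndn and Magel2 (exact permutation p = 0.423, adjusted p = 0.423). Their rho was 0.571, 0.571 and 0.429, and without the 2 outermost arrays r became 0.251, 0.893 and -0.262.

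A list of 53 other imprinted genes, not among the 40, served as a second view of the class. Of 40 tested, 25 had a difference above 0, 3 were higher and 4 lower at an unadjusted p under 0.05, 0 passed after limma's adjustment, and the median was 0.020. Over all genes 43% were above 0, 3.25% higher and 7.65% lower at these limits, so the share of lower genes was near that of all genes. The genes with the smallest p were Kcnq1, given above, and Tnfrsf23, a decoy receptor gene of the distal chromosome 7 cluster. Tnfrsf23 gave -3.37, -3.31, -3.76 and -3.53 in ischemia and -3.18, -2.89, -2.78 and -3.05 in controls, with all ischemia arrays lower and a difference of -0.52 (SE 0.12, limma adjusted p = 0.243), or -0.21 with normexp.

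Factors that set, copy or read methylation imprints were listed as well. Of 22, 20 were tested, 13 had a difference above 0, 1 was higher and 3 were lower at an unadjusted p under 0.05, against the 3.25% and 7.65% of all genes given above, and 0 passed after limma's adjustment. Uhrf1, which brings the maintenance methyltransferase to newly copied DNA, gave 0.91, 1.09, 0.90 and 1.17 in ischemia replicates 1 to 4 and 1.49, 1.31, 1.28 and 1.52 in controls. All ischemia arrays were below all controls, with a difference of -0.38 (SE 0.090, limma adjusted p = 0.243). Dnmt3b, a de novo methyltransferase, gave -1.21, -1.16, -1.37 and -1.28 in ischemia and -0.93, -0.92, -1.0 and -1.14 in controls, again without overlap, and differed by -0.26 (SE 0.074, limma adjusted p = 0.302). That difference was -0.16 with normexp and -0.038 over the mean of its kept probes. Uhrf1 is high in dividing cells, and the values of the progenitor markers given beside Cdkn1c stand beside it too. Their part in the Uhrf1 and Dnmt3b levels was not tested. The 1 higher gene was Trim28, the corepressor that the imprint-binding protein Zfp57 recruits. Trim28 gave 4.22, 4.08, 4.22 and 4.15 in ischemia and 4.04, 4.0, 3.98 and 4.02 in controls. All ischemia arrays were above all controls, with a difference of 0.16 (SE 0.056, limma adjusted p = 0.384). Zfp57 itself differed by -0.15 (SE 0.14) and the maintenance enzyme Dnmt1 by 0.11 (SE 0.086). Trim28, Zfp57 and Dnmt1 were chosen after their values were seen.

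The binding motif of Zfp57, TGCCGC, was looked for on both strands of the 250 bases before each gene's start in RefSeq (GRCm38.p6). It was present for 7 of the 34 imprinted genes with such a sequence (20.6%) and for 9.84% of 27025 genes. Those with it were Calcr, Copg2, Meg3, Mest, Nap1l5, Plagl1 and Zim1. The match is a description of letters, and control regions of most domains lie outside these windows. The windows of the imprinted genes held a median of 10 CpG pairs, against 6 over all genes.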

How the data were processed

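RNA of 8 cortices was hybridised with Cy3 to Agilent 8x60K arrays. Per the file headers, the authors' scanner files hold processed signal intensity from Agilent Feature Extraction 10.7.3.1, background-corrected and not scaled between arrays. The authors' deposited value table holds the same signals as a ratio to 1 constant per array. From these, log2 intensity was taken minus log2 of the array's 75th percentile. Of 59305 non-control spots (55681 probes, 26 left out for outlier spots), 27131 probes well above background on at least 4 of 8 arrays were kept, and a gene was read on its brightest kept probe. Groups were compared with limma 3.58.1 in R 4.3.3 (lmFit and eBayes), with Benjamini-Hochberg adjustment over 19751 genes and a threshold of 0.05, after a test on simulated data. Probes kept the files' names, updated by accession (27235), symbol (3581) or older symbol (565) through RefSeq, and the name of no probe of the 40 genes changed. Probe coordinates are in mm9 as the files give them. With 4 arrays per group, the number of arrays limits the precision.

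The members, the gene lists and the named genes were chosen with earlier results of these data known. All members are named with their difference. Values of every array are given for 21 members set by the rule, for Igf2, for the 2 genes with the smallest p of the other imprinted genes, of the imprint maintenance factors and of the meningeal markers, and for 1 probe and Trim28, chosen after their values were seen. Pairs were tested by exact permutation of all 40320 orders of the 8 arrays. The alternatives were normexp (offset 50), quantile and median scaling, both filters, the mean of kept probes, a trended variance, a replicate block, the value table and arrays left out.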

Additional observations from a re-analysis of the deposited data

Results flagged for a closer look

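Single arrays stood far from the other 3 of their group in 4 of 82 sets of 4 arrays tested, against 4.1 that chance gives, since about 1 in 20 groups is picked out by chance. In each set, the gap from the outermost array to its nearest neighbour was divided by the range of the 4 arrays. This gap was 0.909 of the range for Mkrn3, where ischemia replicate 3 was high. It was 0.872 for Ube3a, where control replicate 2 was low. It was 0.867 for Cd81, where control replicate 1 was low, and 0.855 for Asb4, where control replicate 4 was low.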

How the results depend on the processing

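Under all 18 alternatives 0 of the 36 genes passed limma's adjusted test, and the lowest adjusted p of a member was 0.186. Over the whole array, 0 genes passed with normexp, quantile scaling, either filter on dim probes, the replicate block or ischemia replicates 1 and 4 left out together, 2 with median scaling and 20 with a trended and robust variance, against 1 as reported, and 0 to 1 with an array left out. With median scaling 2 members (Cdkn1c and Dlk1) were higher at an unadjusted p under 0.05 in place of 4. Members lower at that limit were 0 to 1 with an array left out (Grb10 without control replicate 3, Mest without ischemia replicate 4). The median over the members was 0.047 to 0.090 with an array left out and 0.025 without ischemia replicates 1 and 4. Deviations of same-numbered samples of the groups correlated at 0.08, -0.06, 0.29 and 0.39, against -0.23 to 0.18 for samples of unlike number. Whether a shared number links samples cannot be told from these values, and the labels name no link. The replicate block gave 0 genes over the array in place of 1, and not every sample correlated best with its own number. The sign turned for 8 members with an array left out, 7 under another setting and 7 without ischemia replicates 1 and 4, and for 21 under none. With normexp Asb4 was -0.044, Inpp5f -0.018, Peg12 0.036 and Ppp1r9a 0.0016. With quantile scaling Peg12 was 0.0015 and Trappc9 0.0053, and with median scaling Peg12 was 0.0015. The mean of kept probes gave -0.056 for Gnas, -0.027 for Inpp5f and 0.049 for Nap1l5. Without ischemia replicates 1 and 4, Dio3 was -0.17, H19 -0.0049, Kcnq1ot1 0.073, Mirg -0.029, Ndn -0.039, Ppp1r9a 0.0042 and Snrpn -0.014. With an array left out, Asb4 ranged from -0.070 to 0.20, Copg2 from -0.095 to 0.020, Inpp5f from -0.080 to 0.061, Kcnq1ot1 from -0.28 to 0.039, Mirg from -0.046 to 0.11, Peg12 from -0.032 to 0.046, Slc22a18 from -0.36 to 0.10 and Trappc9 from -0.048 to 0.043. With normexp, r was 0.776 for Meg3 and Mirg and 0.709 for Ndn and Snrpn, which no longer passed, and 0.865 for H19 and Igf2, which passed. With median scaling, r was 0.751 for Mest and Copg2 and 0.891 for Nnat and Blcap, which passed. With an array left out, r ranged from 0.775 to 0.932 for Meg3 and Mirg, 0.546 to 0.876 for H19 and Igf2, 0.071 to 0.933 for Ndn and Magel2, 0.728 to 0.910 for Ndn and Snrpn, 0.124 to 0.929 for Mest and Copg2 and 0.669 to 0.820 for Nnat and Blcap. The cause of these changes was not tested.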

Other observations

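The probes between imprinted genes that name no member differed between arrays of both groups. The median deviation of an array from the mean of the 8 arrays was taken over these probes. On the minus strand between the probes of Ube3a and Peg12, with 35 probes measured, it was -0.057, 0.19, 0.025 and -0.20 in ischemia replicates 1 to 4 and 0.095, -0.15, 0.26 and -0.22 in control replicates 1 to 4. On the plus strand between Dlk1 and Dio3, with 23 probes measured, it was 0.072, 0.12, 0.020 and -0.075 in ischemia and 0.22, -0.11, 0.15 and -0.16 in controls. Control replicates 1 and 3 were the higher controls in both intervals.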
